A study of Mus musculus with 12 samples.

Results

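Fibronectin and 9 matricellular genes were followed in primary mouse skin fibroblasts with and without TGF-β2 and with and without Nox4, the gene of NADPH oxidase 4. The 10 genes, Fn1, Tnc, Postn, Thbs1, Thbs2, Sparc, Spp1, Tgfbi, Spon1 and Spon2, were chosen by name from the 21556 genes of the count table, with earlier results of these data known. The 12 libraries came from cultured fibroblasts of abdominal skin in 4 groups of 3. WT cells were from C57BL/6 mice and Nox4 KO cells from B6.129-Nox4tm1Kkr/J mice, which carry a targeted Nox4 allele. All cells were starved for 24 h, and the stimulated groups then received TGF-β2 at 10 ng/ml for 24 h. The groups were WT control, WT with TGF-β2, Nox4 KO control and Nox4 KO with TGF-β2. The age and sex of the animals behind the cultures were not given in the sources used here. The series calls the 3 libraries of a group biological replicates without naming animals or cultures. The p-values therefore rest on the spread between these libraries, part of which may be technical, and on dispersion estimates that draw on other genes.

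Fibronectin is a fibrillar adhesive glycoprotein that cells assemble into a provisional matrix through α5β1 integrin, and collagen, growth factors and other matrix proteins bind to it. Matricellular proteins (tenascin-C, periostin, thrombospondins, SPARC, osteopontin and their kin) are secreted into the matrix but mostly modulate adhesion, matrix assembly and growth factor access rather than bear load. TGF-β drives fibroblasts toward the contractile myofibroblast state of healing wounds, and several of these genes are textbook TGF-β targets.

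Libraries held between 35118344 and 43796260 counted reads. Nox4, the targeted gene, stood at 1.48, 1.31 and 2.42 RPKM (counted reads scaled to the length of the merged exons and to the library's total) in WT control, and at 0.655, 0.636 and 1.4 RPKM in Nox4 KO control. After TGF-β2 it reached 10.9, 8.56 and 16.3 RPKM in WT and 4.54, 4.39 and 6.85 RPKM in Nox4 KO. Every KO library was thus below every WT library after TGF-β2 but not in control, and the KO libraries still held Nox4 reads that rose with TGF-β2. The counts are summed over the whole gene and do not separate the disrupted part from the rest, so they are no check of the deletion. All 9 fibroblast markers reached 1 RPKM. In every library 7 of 7 keratinocyte and 6 of 6 Schwann cell and melanocyte markers stayed under it, as did 4 of 6 endothelial, 4 of 7 muscle, 3 of 5 adipocyte and 4 of 10 macrophage markers. Among known TGF-β response genes Ccn2 (connective tissue growth factor) rose by 1.57 on the log2 scale in WT and 1.59 in KO, and Smad7 (an inhibitory SMAD) by 0.82 and 0.81. The contractile genes Acta2, Cnn1 and Tagln did not pass, with 0.13 and -0.06 for Acta2, 0.27 and -0.06 for Cnn1 and 0.57 and 0.33 for Tagln (adjusted p = 0.0709 and 0.100), and Tagln passed in KO when the replicate number was a block (0.33, adjusted p = 0.0417). A change in bulk RNA can come from fewer cells of a type or from less RNA per cell, and these cannot be told apart here.

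The 10 genes together took 4.76% to 7.04% of all counted reads. Thbs1, the gene of thrombospondin-1, a trimeric glycoprotein that binds CD47 and activates latent TGF-β, alone took 2.17% to 3.19% of each library. By mean RPKM it ranked 2 of all genes in WT control and KO control, 4 in WT with TGF-β2 and 1 in KO with TGF-β2. Sparc, a calcium-binding protein that chaperones collagen, followed with group means of 2617 to 2983 RPKM, and its libraries overlapped those of no neighbour in the order in any group. Below it Postn and Fn1 shared a level, with means of 1186 to 1609 RPKM and 1107 to 1328 RPKM. The mean of Tnc lay under both in the control groups (639 and 606 RPKM), and its libraries overlapped theirs after TGF-β2 (means of 1113 and 1190 RPKM). Thbs2 (223 to 370 RPKM) and Spp1 (57.1 to 98.9 RPKM) came next. Spon2 (25.5 and 29.8 RPKM in control), Tgfbi (3.05 to 4.65 RPKM) and Spon1 (0.176 to 0.443 RPKM) were low. Spon1 stayed under the limit of a group mean of 1 RPKM for testing, so 9 of the 10 genes were tested.

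**Figure D1:**
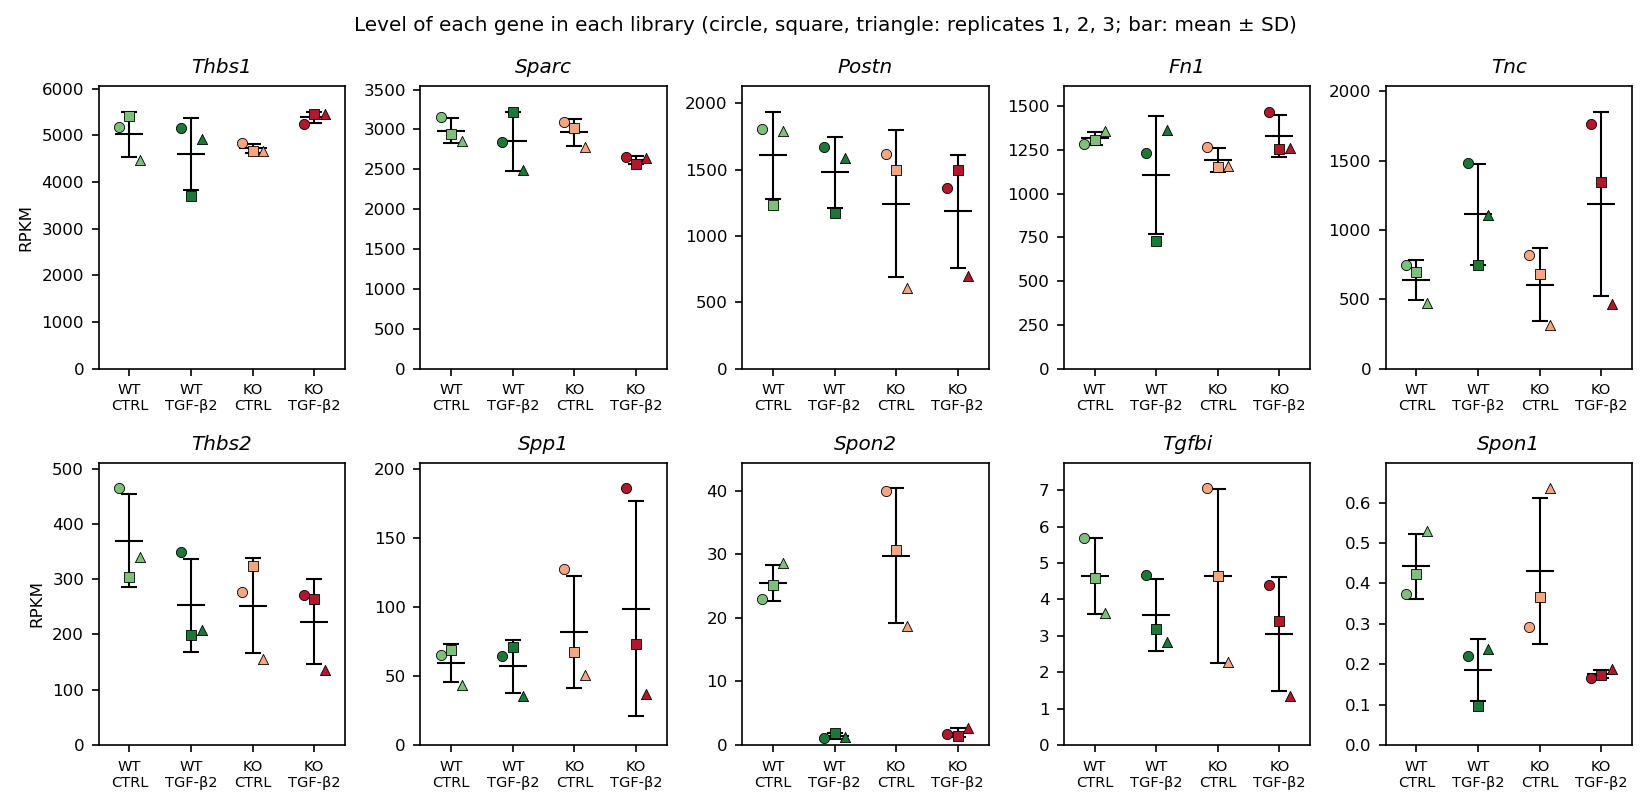
RPKM of each of the 10 genes in each of the 12 libraries, in panels with linear axes from 0 and ordered by level; points are libraries, the horizontal bar is the group mean and the whiskers are 1 SD. Spon2 dropped from 18.8 to 40.0 RPKM in the control libraries to 1.16 to 2.75 RPKM after TGF-β2, while Sparc stayed between 2490 and 3222 RPKM in all 12 libraries.

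TGF-β2 changed Spon2 in both genotypes, and no other of the 9 tested genes passed the test in the main fit (edgeR's quasi-likelihood test, Benjamini-Hochberg adjusted p under 0.05 over all genes). In WT 0 genes of the family were called higher and 1 lower, where 10.6% of all 10743 tested genes were called higher and 12.3% lower. In KO 0 were higher and 1 lower, where 15.2% and 15.0% of 10809 genes were. Among the tested members, 1 (Tnc) had an unadjusted p under 0.05 in WT beside Spon2, and no member other than Spon2 had in KO, where 37.8% and 43.9% of all tested genes had. The median log2 fold change over the 9 was -0.09 in WT and 0.01 in KO, beside -0.0027 and -0.01 over all genes tested. The control and stimulated libraries did not overlap in RPKM for 3 of the 10 genes in WT (Tnc, Spon1, Spon2), where 45.2% of the tested genes had such a gap, and for 4 in KO (Thbs1, Sparc, Spon1, Spon2), where 48.5% had. In Nox4 KO the control and stimulated libraries of the same replicate number deviated together from their group means, and with the number as a block 1 gene was higher (Tnc) and 2 were lower (Tgfbi, Spon2). That fit called 25.1% of all genes higher and 28.8% lower.

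**Figure D2:**
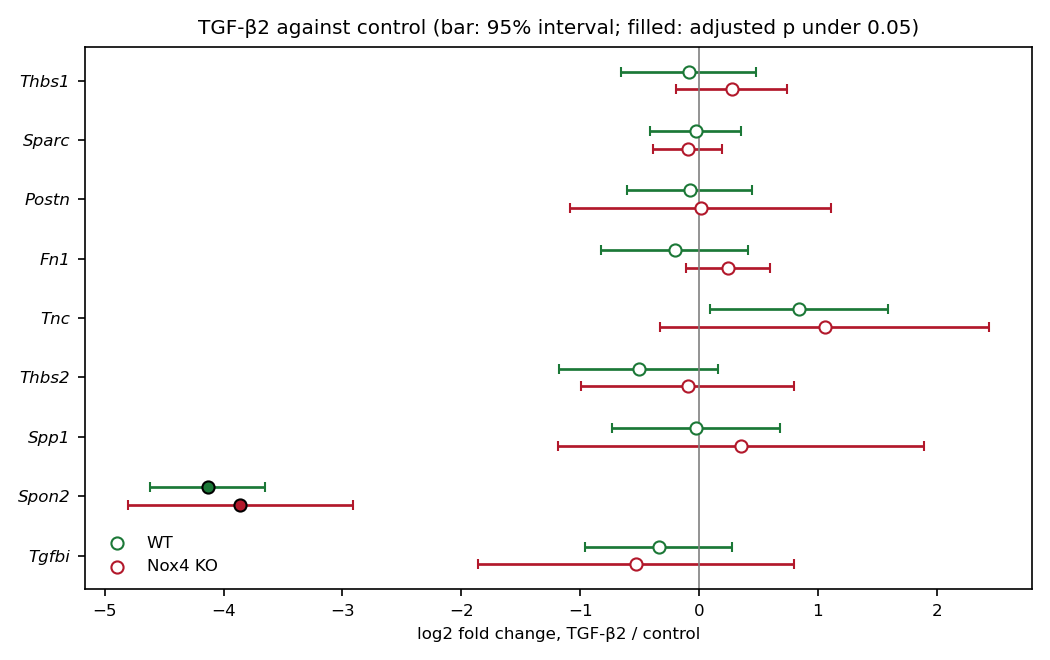
Log2 fold change of TGF-β2 over control for the 9 tested genes in WT (green) and Nox4 KO (red), from the fit without a block; bars are 95% intervals and filled points have an adjusted p under 0.05. Spon2 is the gene with filled points, at -4.13 in WT and -3.86 in KO, and Tnc lies to the right of 0 in both.

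The gene that fell was Spon2 (chr5:33198184-33218455, minus strand), which encodes spondin-2 or mindin, a small F-spondin family protein of the matrix that binds integrins and takes part in innate immune recognition. It stood at 22.9, 25.1 and 28.6 RPKM in WT control and at 1.16, 1.89 and 1.20 RPKM after TGF-β2. In KO it stood at 40.0, 30.6 and 18.8 RPKM in control and at 1.72, 1.37 and 2.75 RPKM after TGF-β2. The groups were far apart in both genotypes, and the lowest library still held 95 reads. Spon2 fell by 4.13 on the log2 scale in WT (SE 0.20, adjusted p = 0.000233), which is 17.6-fold lower with a 95% bound of up to 24.6-fold. In KO it fell by 3.86 (SE 0.39, adjusted p = 0.00307), 14.5-fold lower with a bound of up to 28.0-fold. In KO the fall was 23.3-fold and 22.3-fold in the pairs numbered 1 and 2 and 6.83-fold in pair 3. By fold change Spon2 held places 15 of 1325 and 16 of 1626 among the genes called lower. The interaction term of 0.29 (95% interval -0.66 to 1.25) did not pass the test.

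Its relative Spon1 (F-spondin, a secreted adhesion protein best known from the nervous system; chr7:113765998-114043370, plus strand) was much lower in level. It had 0.373, 0.424 and 0.530 RPKM in WT control and 0.220, 0.0970 and 0.238 RPKM after TGF-β2. In KO it had 0.292, 0.367 and 0.636 RPKM in control and 0.166, 0.174 and 0.187 RPKM after TGF-β2. The groups did not overlap in either genotype, and the libraries held 38 to 240 reads. With edgeR's count-based filter in place of the RPKM limit Spon1 was tested, and it was lower by -1.18 on the log2 scale in WT (adjusted p = 0.0365) and -1.17 in KO (adjusted p = 0.0341), where 12.6% and 13.9% of all genes were called lower. Spon1 lies 26.4 Mb from Nox4 on the same chromosome.

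Tnc (chr4:63959785-64047015, minus strand) encodes tenascin-C, a hexameric glycoprotein that appears in wounds and tumour stroma and weakens adhesion to fibronectin. It stood at 744, 699 and 474 RPKM in WT control and at 1480, 747 and 1111 RPKM after TGF-β2. All stimulated WT libraries were above all controls, but replicate 2 after TGF-β2 exceeded the highest control by less than 3 RPKM. The log2 fold change in WT was 0.84 (95% interval 0.09 to 1.59, unadjusted p = 0.0327, adjusted p = 0.0993). Without replicate 2 of WT with TGF-β2 it was 1.07 and passed (adjusted p = 0.0375). In KO Tnc stood at 818, 686 and 313 RPKM in control and at 1763, 1345 and 463 RPKM after TGF-β2. The groups overlapped in KO because library 3 was low in both conditions, yet stimulated exceeded control by 2.15, 1.96 and 1.48 times in the 3 numbered pairs. The unblocked estimate was 1.06 (95% interval -0.33 to 2.44, adjusted p = 0.203). With the replicate block Tnc rose by 0.97 (95% interval 0.65 to 1.29, adjusted p = 0.00267), and without both KO libraries numbered 3 it rose by 1.13 (adjusted p = 0.0139). Within KO the Tnc levels ran in the same order as the summed macrophage markers, whose values stand with Spp1 and whose part was not tested.

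Fn1 (chr1:71585520-71653200, minus strand) did not pass the test in either genotype. It stood at 1281, 1308 and 1355 RPKM in WT control and at 1229, 727 and 1365 RPKM after TGF-β2. One stimulated library, replicate 2, lay far below the others, and the log2 fold change was -0.20 (95% interval -0.82 to 0.42, adjusted p = 0.601) with it and 0.03 without it. That library also stood apart over all genes. The mean chi-square per gene between library counts was 119 and 147 for replicate 2 against replicates 1 and 3, and 28.9 between those. The reason was not tested. In KO Fn1 stood at 1268, 1152 and 1155 RPKM in control and at 1468, 1256 and 1259 RPKM after TGF-β2. Each numbered KO pair was higher after TGF-β2, by 1.16, 1.09 and 1.09 times, while the groups overlapped. The estimate in KO was 0.24 (95% interval -0.11 to 0.60, adjusted p = 0.249), so a rise above 0.60 lies outside the interval. The interaction was 0.45 (95% interval -0.23 to 1.14).

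The same stimulated WT library was low for Thbs1 (chr2:118111876-118127133, plus strand), which stood at 5168, 5413 and 4479 RPKM in WT control and at 5157, 3704 and 4927 RPKM after TGF-β2. The log2 fold change in WT was -0.09 (95% interval -0.66 to 0.48), and 0.06 without that library. In KO Thbs1 stood at 4827, 4669 and 4668 RPKM in control and at 5248, 5452 and 5446 RPKM after TGF-β2. The KO groups were tight and did not overlap, and the estimate of 0.27 (SE 0.19, 95% interval -0.20 to 0.74, adjusted p = 0.316) did not pass. DESeq2 called this difference, with 0.28 (SE 0.05) and adjusted p = 1.97e-07, as did the legacy form of edgeR's test (SE 0.07, adjusted p = 0.0343).

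Thbs2 (chr17:14665500-14694235, minus strand) encodes thrombospondin-2, which shares the anti-angiogenic repeats of thrombospondin-1 and is needed for orderly collagen fibrils in skin. It stood at 465, 304 and 341 RPKM in WT control and at 349, 200 and 209 RPKM after TGF-β2. The WT groups overlapped through the highest stimulated library, and the log2 fold change was -0.51 (95% interval -1.17 to 0.16, adjusted p = 0.234). In KO Thbs2 stood at 277, 324 and 156 RPKM in control and at 271, 264 and 135 RPKM after TGF-β2. The estimate in KO was -0.09 (95% interval -0.99 to 0.80). Neither genotype passed the test for Thbs2 in the main fit. Each numbered pair was lower after TGF-β2, at 0.752, 0.658 and 0.612 times control in WT and 0.978, 0.815 and 0.865 times in KO. With the replicate block the WT estimate was -0.53 (adjusted p = 0.0233), in a fit that called 1769 of 10743 genes lower. No pairing was taken in WT. The KO estimate with the block was -0.09 (adjusted p = 0.304).

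Tnc and Thbs2 had the highest and the second lowest WT estimates among the tested genes, and the bases upstream of their start sites are shown for reference. RefSeq windows of GRCm38.p6 were held for 6 of the 10 genes (Tnc, Postn, Thbs2, Sparc, Spp1 and Tgfbi); the others are Fn1, Thbs1, Spon1 and Spon2. Each line gives the 250 bases before the RefSeq start site, read 5′ to 3′ on the gene's strand, with capitals on matches to CAGAC (the SMAD element), TGANTCA (the AP-1 site) and TATAAA (the TATA box) on either strand.
Tnc, chr4:64047016-64047265, minus strand: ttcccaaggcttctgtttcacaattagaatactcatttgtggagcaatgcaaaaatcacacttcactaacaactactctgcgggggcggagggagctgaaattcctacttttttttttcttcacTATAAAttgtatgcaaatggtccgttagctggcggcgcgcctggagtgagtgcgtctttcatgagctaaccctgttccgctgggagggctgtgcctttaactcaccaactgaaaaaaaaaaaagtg
Thbs2, chr17:14694263-14694512, minus strand: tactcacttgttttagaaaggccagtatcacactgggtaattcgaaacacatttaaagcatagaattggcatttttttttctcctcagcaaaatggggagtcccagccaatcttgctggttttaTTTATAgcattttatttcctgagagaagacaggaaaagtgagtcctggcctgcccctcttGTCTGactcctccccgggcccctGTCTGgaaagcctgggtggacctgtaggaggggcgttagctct
The Tnc window held TATAAA from -126 to -121 and no CAGAC, and the Thbs2 window held CAGAC on the opposite strand from -66 to -62 and from -43 to -39, and TATAAA on the opposite strand from -126 to -121. CAGAC was also in the windows of Sparc, Spp1 and Tgfbi and in 42.2% of all 32851 windows. TATAAA was in those of Postn and Spp1 too and in 12.4% of all windows. TGANTCA was in none of the 6 and in 6.75% of all windows. Such matches describe letters and are no evidence of binding.

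Postn and Tgfbi encode the fasciclin-domain proteins periostin, which promotes collagen crosslinking in healing skin, and TGFBI, named for its induction by TGF-β. Postn (chr3:54361109-54391037, plus strand) stood at 1807, 1231 and 1789 RPKM in WT control and at 1674, 1176 and 1589 RPKM after TGF-β2. Its WT groups overlapped widely, with a log2 fold change of -0.08 (95% interval -0.60 to 0.45, adjusted p = 0.828). In KO it stood at 1619, 1500 and 607 RPKM in control and at 1357, 1499 and 701 RPKM after TGF-β2. The KO estimate was 0.01 with a wide interval of -1.08 to 1.11, which narrowed to -0.21 to 0.35 around 0.07 with the replicate block. Tgfbi (chr13:56609523-56639562, plus strand) was low, at 5.70, 4.60 and 3.63 RPKM in WT control and 4.68, 3.18 and 2.84 RPKM after TGF-β2. The WT groups overlapped, with -0.34 (95% interval -0.96 to 0.28, adjusted p = 0.384). In KO Tgfbi stood at 7.06, 4.64 and 2.27 RPKM in control and at 4.39, 3.42 and 1.34 RPKM after TGF-β2. It was lower after TGF-β2 in each numbered KO pair, and it fell by 0.53 with the block (95% interval -0.76 to -0.30, adjusted p = 0.00613). Without the block the estimate was -0.53 (95% interval -1.86 to 0.80, adjusted p = 0.490).

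Sparc (chr11:55394500-55423183, minus strand) varied little. It stood at 3156, 2940 and 2853 RPKM in WT control and at 2838, 3222 and 2490 RPKM after TGF-β2, with a log2 fold change of -0.03 (95% interval -0.41 to 0.36). In KO it stood at 3098, 3018 and 2777 RPKM in control and at 2649, 2564 and 2639 RPKM after TGF-β2. The KO groups did not overlap in RPKM, and the normalised estimate of -0.09 (95% interval -0.39 to 0.20, adjusted p = 0.577) did not pass.

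Spp1 (chr5:104435118-104441050, plus strand) encodes osteopontin, an integrin and CD44 ligand that macrophages also secrete. It stood at 65.3, 69.3 and 43.6 RPKM in WT control and at 64.6, 71.4 and 35.3 RPKM after TGF-β2, and the estimate was -0.02 (95% interval -0.73 to 0.68). In KO it stood at 128, 67.3 and 50.6 RPKM in control and at 186, 73.4 and 36.9 RPKM after TGF-β2. KO library 1 was the highest in both conditions, and the estimate of 0.35 (95% interval -1.19 to 1.90) became -0.49 without replicate 1 of KO with TGF-β2. The summed RPKM of the 10 macrophage markers ran in the same order within KO, at 104, 36.6 and 21.1 in control and 77.2, 27.0 and 14.6 after TGF-β2, as did Tgfbi and Tnc. None of the 6 tested macrophage markers passed between control and TGF-β2 without the block. With it 4 were lower after TGF-β2 in KO, by 0.85 for Csf1r, 0.65 for Cd68, 0.54 for Adgre1 and 0.40 for Lyz2. That fit called 28.8% of all genes lower. A block in WT, where no pairing was taken, called 3 lower after TGF-β2, where 1769 of 10743 genes were. These were Csf1r (0.86), Adgre1 (0.62) and Lyz2 (0.36). In WT the marker sum was highest in library 3 in both conditions (135 and 96.1), where Spp1 was lowest. It stood at 49.6 and 27.0 in the other controls and at 38.5 and 23.5 in the other stimulated libraries. The markers at or above 1 RPKM in some library were Lyz2, C1qa, C1qb, Cd68, Csf1r and Adgre1, while Ptprc, Itgam, Mrc1 and Aif1 stayed below it and Aif1 was at 0 in 1 library. Their part in the Spp1, Tgfbi and Tnc values was not tested.

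In Nox4 KO library 3 was the lowest of the 3 in both conditions for 5 of the 10 genes, Tnc, Postn, Thbs2, Spp1 and Tgfbi. The same held for 20.9% of the 10890 genes tested over all libraries. Relative to the mean of the other KO libraries, library 3 had 41.6% of the Tnc level in control and 29.8% after TGF-β2. For Postn these shares were 38.9% and 49.1%, for Thbs2 52.1% and 50.6%, for Spp1 51.8% and 28.4%, and for Tgfbi 38.8% and 34.3%. Fn1, Thbs1 and Sparc showed no such gap, with shares of 90.8% to 102%. Spon2 was at 53.1% in control and 178% after TGF-β2, and Spon1 at 193% and 110%. In WT the libraries of shared number did not deviate together in all pairs.

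**Figure D3:**
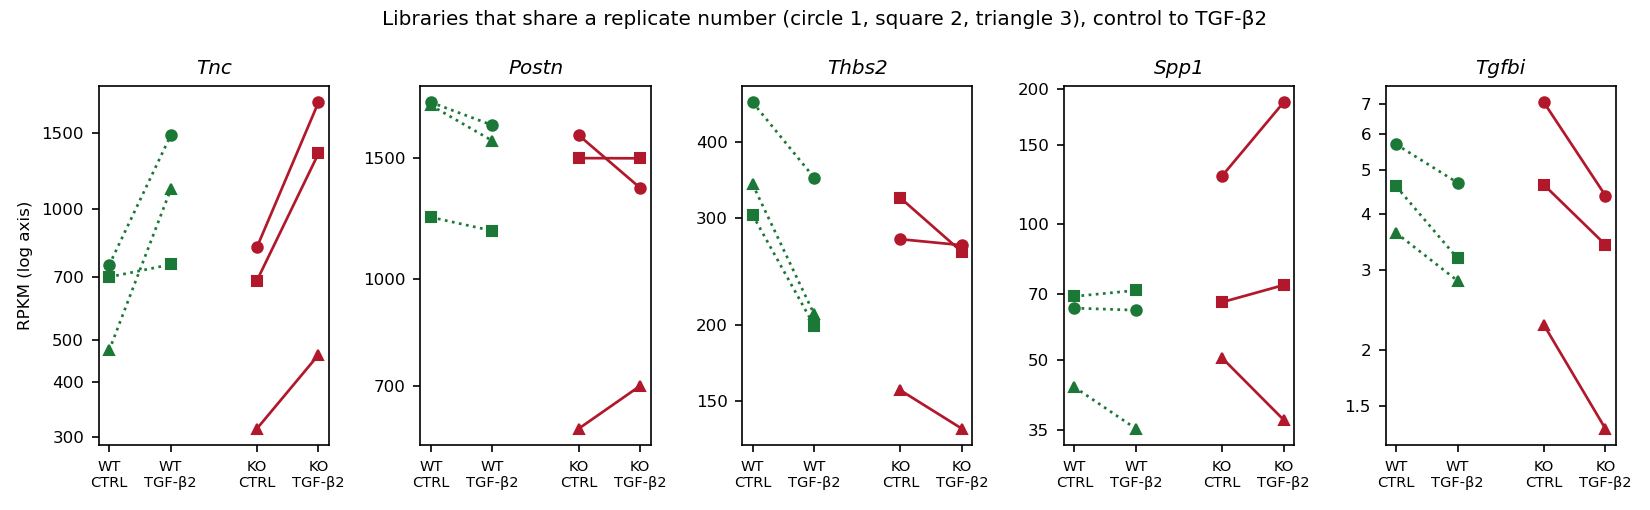
RPKM on a log axis for the 5 genes that were lowest in KO library 3 in both conditions. Lines join control and TGF-β2 libraries of the same replicate number. They are dotted in WT, where no pairing was taken, and solid in Nox4 KO, where the numbers were taken to pair the libraries. In KO the Tnc lines all climb and the Tgfbi lines all descend, from starting levels that differ by up to 3.11 times for Tgfbi.

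Whether Nox4 loss altered these genes was tested in both conditions and as a difference between the responses. None of the 9 tested genes was called in control, after TGF-β2 or in the interaction, where edgeR called 0% of all genes. None of the 9 had an unadjusted p under 0.05 in these 3 tests, where 596, 336 and 290 of all genes did (5.54%, 3.22% and 2.66%). DESeq2 called 28, 16 and 6 genes (0.260%, 0.153% and 0.0551% of those tested), and 0 of them were members. In control the estimates of KO over WT ran from -0.59 for Thbs2 (95% interval -1.33 to 0.16) to 0.42 for Spp1 (95% interval -0.48 to 1.33). After TGF-β2 they ran from -0.30 for Postn (95% interval -1.04 to 0.44) to 0.82 for Spp1 (95% interval -0.55 to 2.19). The Spp1 difference after TGF-β2 became -0.03 without replicate 1 of KO with TGF-β2, the library at 186 RPKM. Sparc was bounded most tightly, at -0.05 (95% interval -0.44 to 0.34) in control and -0.10 (95% interval -0.42 to 0.22) after TGF-β2. For Fn1 the differences were -0.18 (95% interval -0.60 to 0.24) and 0.27 (95% interval -0.36 to 0.91). In control the WT and KO ranges had a gap for 1 of the 10 genes, Fn1, lower in KO, as they had for 13.6% of tested genes. After TGF-β2 1 gene, Thbs1, lay higher in every KO library, and 10.1% of tested genes had a gap in either direction.

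**Figure D4:**
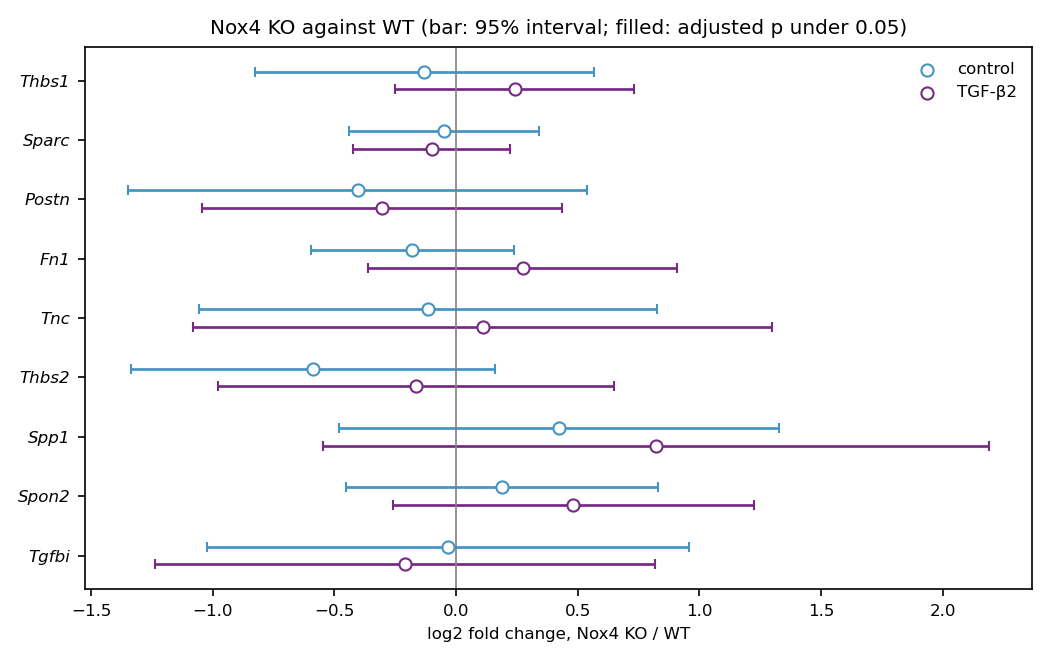
Log2 fold change of Nox4 KO over WT for the 9 tested genes in control (blue) and after TGF-β2 (purple); bars are 95% intervals and no point is filled, since none had an adjusted p under 0.05. The intervals are narrowest for Sparc and widest for Spp1 after TGF-β2 (-0.55 to 2.19), and all include 0.

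Several receptors for these proteins passed the test. Of 24 listed receptors 20 were tested in WT, with 4 higher and 5 lower, and 21 in KO, with 6 higher and 5 lower. Of all tested genes 10.6% were called higher and 12.3% lower in WT, and 15.2% and 15.0% in KO. With the block in KO 9 receptors were higher and 8 lower, where 25.1% and 28.8% of all genes were. The 8 include Itga4, which reached the limit of 1 RPKM in KO control only. Itga5, the α chain of the fibronectin receptor, rose from 341, 393 and 222 RPKM to 869, 777 and 884 RPKM in WT and from 354, 375 and 215 RPKM to 874, 874 and 668 RPKM in KO. The groups were far apart, and the rise was 1.44 on the log2 scale in both genotypes (adjusted p = 0.0073 and 0.0109). Its partner Itgb1 rose by 0.40 in KO (adjusted p = 0.0274) and had 0.31 in WT (adjusted p = 0.183). Itgav, the αv chain of the vitronectin and osteopontin receptors, rose by 1.12 in KO (adjusted p = 0.00235) and had 0.54 in WT (adjusted p = 0.108), and the interaction of 0.59 did not pass (adjusted p = 0.850). Itgb3, which pairs with αv, rose by 1.55 in WT (adjusted p = 0.00611), and its 1.87 in KO did not pass without the block (adjusted p = 0.114) but did with it, at 1.65 (adjusted p = 0.00399). Plaur, the urokinase receptor, rose by 1.69 and 1.39 (adjusted p = 0.00354 and 0.00523). Sdc3, a heparan sulfate syndecan, rose by 0.85 in both (adjusted p = 0.00838 and 0.00148).

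Without the block the same 5 receptors were called lower in both genotypes, Itga8, Sdc4, Ddr2, Cd47 and Sdc1, and with it Itga3, Itga4 and Ptprz1 were also called lower in KO. Itga4 had KO means of 1.14 RPKM in control and 0.673 RPKM after TGF-β2. It reached the limit of 1 RPKM in control only, so the limit itself favoured a fall for it. Itga8, the α chain that binds nephronectin and tenascin-C with β1, fell by 2.21 in WT and 1.96 in KO (adjusted p = 0.00443 and 0.0194). Sdc4, the syndecan that joins integrin α5β1 in focal adhesions on fibronectin, fell by 1.25 and 1.52 (adjusted p = 0.00564 and 0.0154). Ddr2, a collagen receptor, fell by 1.16 and 0.72 (adjusted p = 0.00856 and 0.00308). Cd47, the thrombospondin-1 receptor, fell by 0.90 and 0.72 (adjusted p = 0.0178 and 0.0109). Cd44, which binds osteopontin and hyaluronan, had 0.38 and 0.47 and did not pass (adjusted p = 0.159 and 0.139), although with the block the KO estimate of 0.48 did (adjusted p = 0.00128). Cd36, another thrombospondin receptor, had means of 0.154 to 0.589 RPKM and was not tested.

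Of 34 listed relatives of these matrix proteins 18 were tested in WT and 16 in KO. In WT 6 of the 18 (Rspo2, Rspo3, Smoc1, Stab1, Thbs4 and Tnxb) and in KO 4 of the 16 (Rspo2, Smoc1, Thbs4 and Tnxb) reached the limit of 1 RPKM in 1 of the groups compared and not in the other, so the limit itself favoured a difference for them, and they are left out of the counts that follow. Of the other 12 in WT 2 were higher and 6 lower, where 10.4% and 10.8% of all genes that reached the limit in both groups were. Of the other 12 in KO 1 was higher and 4 lower, where 15.4% and 13.8% were. With the block in KO Cilp, Mfge8 and Smoc2 of these 12 were higher. Comp, Ecm1, Matn2, Nid1, Nid2, Npnt and Thbs3 were lower in that fit, which called 25.1% of all tested genes higher and 28.8% lower. Nid2, a nidogen that links laminin and collagen IV in basement membranes, fell from a mean of 29.0 to 4.11 RPKM in WT and from 27.8 to 4.36 RPKM in KO, by 2.78 and 2.59 on the log2 scale (adjusted p = 0.000351 and 0.00357). Nid1, its paralog, fell by 0.92 and 0.53 (adjusted p = 0.00600 and 0.0284). Thbs3, a pentameric thrombospondin, fell by 0.96 and 0.87 (adjusted p = 0.0135 and 0.0233). Mfge8, an integrin-binding milk fat globule protein that helps clear dying cells, rose by 0.61 in WT and 0.47 in KO (adjusted p = 0.0240 and 0.00516). Smoc2, of the SPARC family, rose by 0.46 in WT (adjusted p = 0.0256) and had 0.28 in KO (adjusted p = 0.701), or 0.30 with the block (adjusted p = 0.0165). Of the genes that reached the limit in 1 group, Rspo2, a WNT-enhancing R-spondin, went from a mean of 2.04 to 0.200 RPKM in WT, Smoc1 from 2.47 to 0.881 RPKM and Thbs4 from 0.498 to 3.87 RPKM.

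Some markers of other cell types were also called lower, where 12.3% of all genes were in WT and 15.0% in KO. Without the block none of the 6 tested macrophage markers passed, nor did Kdr, the tested endothelial marker. Of the 2 tested adipocyte markers Lpl was lower by 1.54 in WT and 1.34 in KO (adjusted p = 0.00818 and 0.0223). Fabp4 was lower by 2.07 in WT (adjusted p = 0.0162) with -2.29 in KO (adjusted p = 0.0707, and 0.0267 with the block). Its mean went from 3.77 to 0.865 RPKM in WT and from 2.31 to 0.451 RPKM in KO. Fabp4 thus reached the limit of 1 RPKM in control only, and the limit itself favoured a fall for it. The summed RPKM of the 5 adipocyte markers went from 17.1 to 26.0 in WT control to 5.24 to 9.06 after TGF-β2, and in KO from 7.06 to 13.8 to 2.43 to 5.05. Of the 3 tested muscle and mural markers 2 were called lower in WT and 1 in KO. Notch3 fell by 2.04 and 1.43 (adjusted p = 0.00555 and 0.0177), and Myh11 by 1.13 in WT (adjusted p = 0.00523) with -0.66 in KO (adjusted p = 0.108, and 0.0101 with the block). Des had -0.41 in WT (adjusted p = 0.714) and -0.61 in KO (adjusted p = 0.389, and 0.0366 with the block). Of the 9 fibroblast markers 0 were called higher, and 2 were called lower in WT and 3 in KO, without the block. Pdgfra fell by 3.35 and 2.98 (adjusted p = 0.000555 and 0.00131) and Col3a1 by 1.19 and 0.92 (adjusted p = 0.0123 and 0.0116). Dcn fell by 0.39 in KO (adjusted p = 0.00726) and had -0.42 in WT (adjusted p = 0.441). The other markers did not pass, with Vim at 0.23 and 0.10 and Col1a1 at -0.08 and -0.04. The part of other cell types in the values of the relatives was not tested.

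Genes that process or crosslink these proteins made a list of 20, of which 19 were tested, with 6 higher and 3 lower in WT, where 10.6% and 12.3% of all genes were, and 6 higher and 4 lower in KO, where 15.2% and 15.0% were. The 3 of 19 lower in WT are 15.8%, near that share. With the block in KO 8 were higher and 5 lower, where 25.1% and 28.8% of all genes were. Mmp9, a gelatinase, rose from a mean of 1.38 to 16.0 RPKM in WT and from 1.65 to 22.0 RPKM in KO, by 3.57 and 3.82 (adjusted p = 0.000227 and 0.00498). Tgm2, the transglutaminase that crosslinks fibronectin and osteopontin, rose by 1.58 and 1.26 (adjusted p = 0.00416 and 0.0328). Tll1, a procollagen C-proteinase of the BMP1 family, rose by 1.71 and 2.33 (adjusted p = 0.0169 and 0.00770), and the proprotein convertase Furin by 0.71 and 0.80 (adjusted p = 0.00494 and 0.00273). Adamts1, a metalloproteinase with thrombospondin repeats, fell by 2.93 and 2.63 (adjusted p = 0.00160 and 0.0121). Plau, the gene of urokinase, fell by 2.03 and 1.92 (adjusted p = 0.00601 and 0.00121), and Col6a1, a chain of microfibrillar collagen VI, by 1.44 and 1.14 (adjusted p = 0.00172 and 0.0453). No gene of the 3 lists was called between genotypes or in the interaction.

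**Figure D5:**
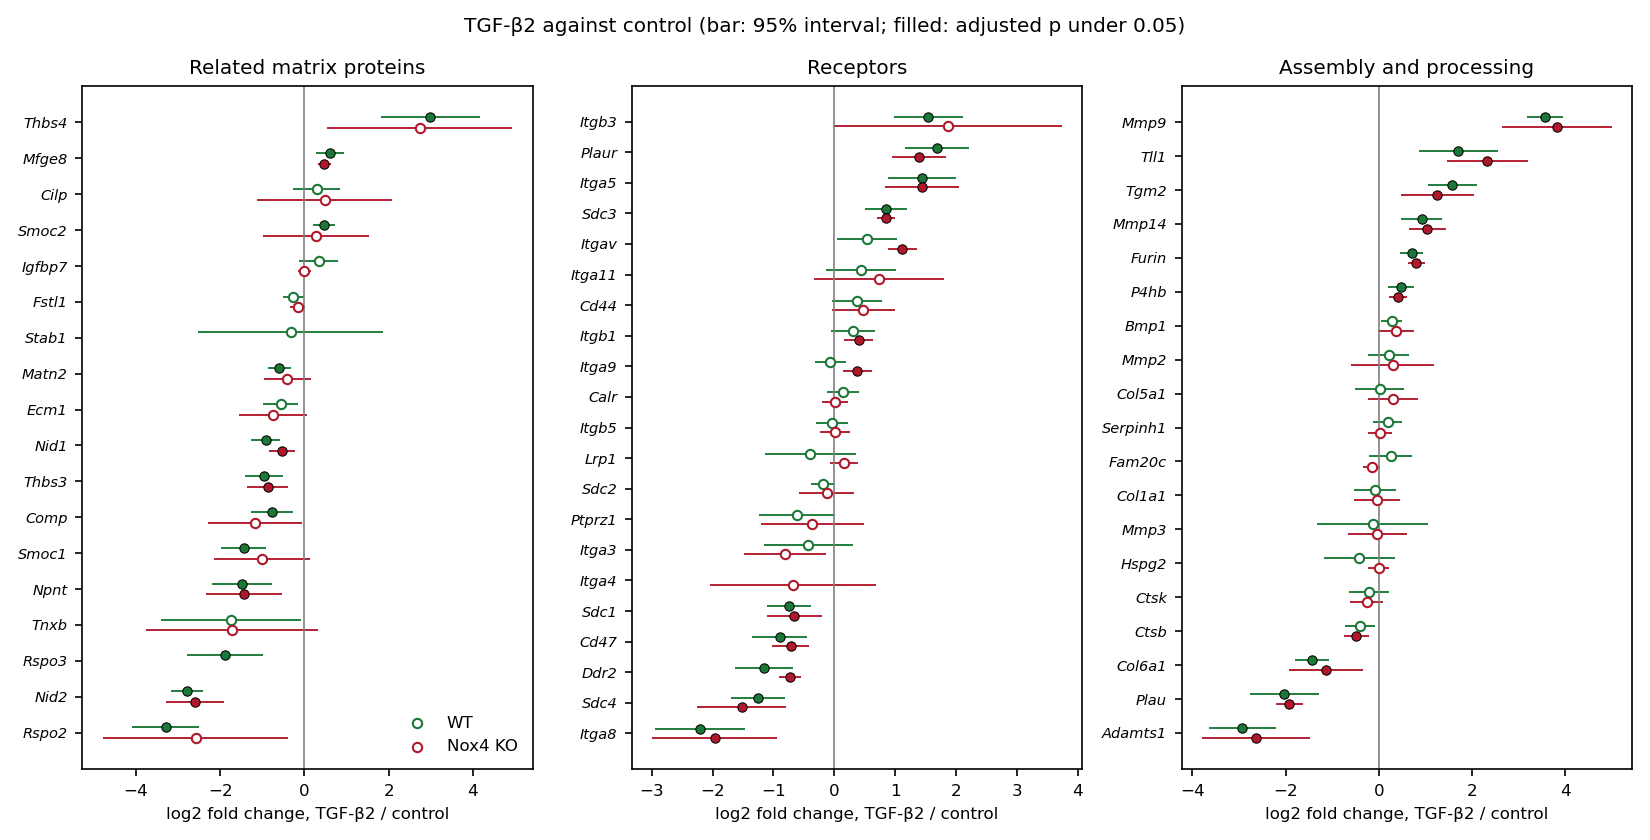
Log2 fold change of TGF-β2 over control for the tested genes of 3 lists, related matrix proteins, receptors and genes of assembly and processing, in WT (green) and Nox4 KO (red); bars are 95% intervals, and filled points have an adjusted p under 0.05 without a block, the relatives that reached 1 RPKM in 1 group included. Itga5 and Mmp9 lie right of 0 and Nid2, Itga8 and Adamts1 left of 0 with filled points in both genotypes.

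The genes whose profiles over the 12 libraries were most like each member were found by the Euclidean distance between centred log2 CPM values among 10890 genes, as a description. Nearest to Fn1 were Arid1a, Notch2 and Dido1, at distances of 0.23 (log2 units over all libraries). Nearest to Thbs1 were Ctif (0.14), Luzp1 (0.20) and Cdc42bpb (0.26), and to Sparc Sptlc2 (0.15), Ptpa (0.16) and Ppp2r1a (0.19), whose levels like that of Sparc hardly varied. Tnc had Kalrn (0.45), Flt1 (0.70) and Adam12 (0.82) nearest. Postn had Aebp1 (0.73), Mmp2 (0.82) and Has1 (0.83), Thbs2 had Il4ra (0.79), Fam20a (0.80) and Tacc1 (0.84), and Tgfbi had Ankrd34a (0.75), Fbln1 (0.84) and Il4ra (0.97). Spp1 had Cplx2 (0.74), Ccne2 (0.91) and Cdc6 (0.94), and Spon2 had Rasl11a (1.54), Adh1 (1.64) and Rerg (1.71), farther off than for any other member. No member was among the 3 nearest of another.

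Annotated genes of GRCm38 that were not counted overlap 4 members, Apol7d at Fn1, 8030451A03Rik at Tnc and Gm29233 at Thbs1 on the opposite strand and Gm42793 at Spp1 on the same strand, and whether counting used strand was not given in the sources used here.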

How the data were processed

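RNA from 12 libraries of cultured skin fibroblasts was sequenced as single-end reads. Per the labels and the study's methods, the authors aligned them to the mouse assembly GRCm38 with STAR 2.4, kept reads that map to 1 place and summed them per gene over the exons of protein-coding isoforms with featureCounts 1.4.6. They deposited raw counts per gene, with no normalization. Groups and replicate numbers came from the sample titles, and 0 columns were left unused. All 21556 identifiers matched GENCODE for GRCm38, with lengths of merged exons taken from protein-coding transcripts (21099 genes) or else any transcript (457). RPKM was computed from the counts, the total of each library and these lengths.

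Each comparison was fitted on its own 6 libraries, and the interaction on all 12, with edgeR 4.0.16 in R 4.3.3 (quasi-likelihood test, TMM, library sizes over the kept genes). Genes with a group mean of at least 1 RPKM were kept, p-values were adjusted by Benjamini-Hochberg over all of them, and a gene was called at an adjusted p under 0.05 with no fold limit. SE and 95% intervals come from the same fit, and the interaction term is the KO response minus the WT response. Library sizes over the kept genes were chosen after an earlier run with total counts had given another split of higher and lower calls in WT, and that run is kept as an alternative. DESeq2 1.42.0 was an alternative, and the script was tested on simulated counts.

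The 10 members, the gene lists and the tests were chosen with earlier results of these data known. The text names all members, up to 4 genes per list and comparison with the smallest adjusted p among those called, 8 listed receptors (Itga5, Itgav, Itgb1, Itgb3, Sdc4, Cd44, Cd36 and Cd47) and the 3 nearest genes of each tested member. Sdc1, Itga3, Itga4, Ptprz1, Thbs4, Smoc2, Rspo3, Stab1, Tnxb, Cilp, Comp, Ecm1, Matn2, Npnt, the uncalled TGF-β response genes and the cell type markers were named after their values were seen. KO libraries of the same number had correlated deviations from their group means (0.775, 0.683 and 0.748 over genes), so the numbers were taken to pair them. In WT the correlations were 0.0751, 0.435 and 0.531, and no pairing was taken. No source states a pairing. Other alternatives were other scalings and filters, a fold limit, the legacy test, a replicate block, all 12 libraries in each fit and leaving out each library in turn. The count over the list of TGF-β response genes is not reported here. Promoter windows are RefSeq sequences of GRCm38.p6.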

Additional observations from a re-analysis of the deposited data

How the results depend on the processing

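Of 815 member values recomputed under the alternatives, 793 kept their side of the threshold and moved by less than 1 SE, 13 moved by more, 9 passed the threshold that the reported value missed, and none lost a call or turned a called direction. Spon2 was called lower in both genotypes under every alternative run, with -4.38 to -4.03 in WT and -4.18 to -3.59 in KO when 1 library was left out. In WT the count of members called higher, 0, became 1 with DESeq2 (Tnc, adjusted p = 0.0179) and 0 to 1 when 1 library was left out, and the count called lower, 1, became 2 with no filter or with the count-based filter (Spon1). With the replicate block it became 2 in WT (Thbs2, -0.53, adjusted p = 0.0233), and all genes called lower went from 1325 to 1769. No pairing was taken in WT, where deviations of same-numbered libraries had correlations of 0.0751, 0.435 and 0.531. In KO the count higher, 0, became 2 with DESeq2 (Thbs1, and Fn1 with adjusted p = 0.0396), 1 with the legacy test (Thbs1), 1 with the replicate block and 1 without every KO library numbered 3 (Tnc in both, the latter chosen after seeing the data). The count lower, 1, became 2 in KO with no filter, with the count-based filter (Spon1) and with the replicate block (Tgfbi). Causes were not tested. The block changed no other member call, and none between genotypes or in the interaction.

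Counts over all genes moved further. A fold limit of 2 left 284 higher and 548 lower in WT, from 1138 and 1325, and 240 and 497 in KO, from 1644 and 1626. All 12 libraries in the WT fit gave 1774 higher, and the replicate block in KO 2714 and 3118. Total counts as library sizes, the scaling used before the main one was chosen, gave 1325 higher and 1271 lower in WT and left KO at 1644 and 1626. Library size alone gave 886 and 1376 in WT and shifted the KO split to 1044 higher and 2135 lower, with medians over all genes of -0.04 and -0.10. Leaving out 1 library gave 523 to 1649 higher and 746 to 1757 lower in WT, and 583 to 1718 and 574 to 1795 in KO. Between genotypes DESeq2 called 9 higher and 19 lower in control and 8 and 8 after TGF-β2, and 6 lower terms in the interaction. Without the block the KO intervals for Postn, Spp1, Tgfbi and Tnc reach past a change of 2-fold, and with it that for Tnc (0.65 to 1.29) does while those for Postn, Spp1 and Tgfbi do not. The lowest member counts were 38 reads for Spon1, 95 for Spon2 and 153 for Tgfbi, and the RPKM limit kept Spon1 out of the test.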
